A study of Mus musculus with 9 samples.

Results

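The genes described here are 10 inflammatory cytokine and NF-kB feedback genes, namely Tnf, Il1a, Il1b, Il6, Cxcl2, Cxcl10, Ccl3, Ccl4, Nfkbia and Tnfaip3, among 22180 genes measured on 9 Affymetrix mouse gene arrays. They were taken by name and read from probe sets annotated with exactly 1 gene symbol, and each of the 10 had 1 such probe set. RNA came from mouse stem cells of the Lin- Sca-1+ c-kit+ CD34- CD135- gate, the long-term repopulating compartment of C57BL/6 bone marrow. The groups were Jak2VF_Ezh2KO (MxCre, 1 mutant Jak2 allele and EZH2-/-), Jak2VF (MxCre and the same Jak2 allele, with Ezh2 not deleted) and WT controls, with 3 biological replicates each. Each mouse, WT included, was given pI-pC from 4 weeks of age (5 doses, 300 µg each) and was sampled 12 weeks afterwards. MxCre is a Cre recombinase under the interferon-inducible Mx1 promoter, so recombination was not limited to stem cells, and pI-pC is a synthetic RNA that itself provokes an interferon response. The labels do not state whether WT mice carried MxCre, and a difference from WT can therefore also hold the Cre transgene. All values below are log2 signals or differences of log2 signals, where a difference of 1 is a fold of 2.

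NF-kB is a family of transcription factors held in the cytoplasm by inhibitor proteins until receptors for TNF, interleukin-1 or microbial products activate the IKK kinase complex, which marks the inhibitors for destruction. Freed NF-kB then switches on cytokine and chemokine genes, and with them the genes of its own inhibitors. Nfkbia encodes IkBa, the inhibitor that returns NF-kB to the cytoplasm, and Tnfaip3 encodes A20, a ubiquitin-editing enzyme that quiets signalling below the receptors. Haematopoietic stem cells carry receptors for several of these cytokines, and inflammatory signals are known to push them out of quiescence. In myeloproliferative neoplasms, which activating JAK2 mutations drive, raised inflammatory cytokines are a known feature. EZH2 is the enzyme of Polycomb repressive complex 2 that methylates histone H3 and thereby keeps genes silent.

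Array medians lay between 5.51 and 5.67, and the arrays correlated with each other at 0.898 to 0.968 over all probe sets. Jak2VF_Ezh2KO replicates 1 and 2 stood apart in sex-linked signal, with mean Y-linked signals of 6.66 and 6.81, against 3.64 to 4.08 on the other 7 arrays, and with Xist at 4.86 and 4.56, against 10.84 to 11.31 on the others. Values without both arrays, a setting chosen after seeing the data, are therefore given beside the differences of the 10 genes that are described one by one and of the genes that passed, and they rest on Jak2VF_Ezh2KO replicate 3 alone. Ezh2 read 8.47, 8.08 and 8.42 in Jak2VF_Ezh2KO, 8.87, 9.09 and 8.78 in Jak2VF, and 8.48, 8.81 and 8.69 in WT, and was 0.59 lower in Jak2VF_Ezh2KO than in Jak2VF without passing (limma, adjusted p = 0.411). The labels do not state where its probe set lies relative to the deletion, and its level does not check the deletion. Jak2 was 0.46 lower in the same comparison (limma, adjusted p = 0.539), and its level does not show the mutant allele. The mean signal of 13 stem cell markers was 7.35 to 7.56 in Jak2VF_Ezh2KO, 7.37 to 7.49 in Jak2VF and 7.61 to 7.63 in WT, with 0 genes that passed (limma). In this mean every mutant array lay below every WT array. In Jak2VF against WT, 3 of the 13 were positive and 10 negative, where 55.8% of all genes were positive. The 3 with the smallest p were Procr, Mecom and Mllt3. In Jak2VF against WT they differed by -0.64, -0.71 and -0.56, without overlap (limma, adjusted p = 0.868, 0.863 and 0.868). In Jak2VF_Ezh2KO against Jak2VF they differed by 0.90, 0.31 and 0.35, also without overlap (limma, adjusted p = 0.0941, 0.738 and 0.608). The 2 comparisons share the Jak2VF arrays. Of the same markers, Kit, the gated c-kit receptor, read 9.43 to 10.18 over all arrays. Of 4 other genes, markers expected low in the gate, 0 passed (limma). Cd34, whose protein the gate excluded, read 9.91 to 10.68, and Flt3, which encodes CD135, 6.91 to 8.03. The means of Cd34, Cd48, Flt3 and Il7r over the arrays lay above those of 99%, 94.8%, 85.1% and 48% of all genes. In Jak2VF_Ezh2KO, Il7r was 1.95 above Jak2VF and 1.61 above WT, without overlap (limma, adjusted p = 0.221 and 0.319). Cd34 differed by -0.55 and -0.34, also without overlap. Cd48 read 8.56 to 8.87 in Jak2VF_Ezh2KO, 9.04 to 9.18 in Jak2VF and 7.30 to 8.82 in WT.

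Several of these genes are textbook NF-kB targets, so the 250 bases before each gene start were searched on both strands (RefSeq starts, GRCm38.p6). The table of promoters holds 9 of the 10 genes, all but Ccl4. The kappaB consensus was taken as 3 G, a purine, any base, 3 pyrimidines and 2 C, and it was present in 5 of the 9, namely Il6, Cxcl2, Cxcl10, Nfkbia and Tnfaip3, and in 5% of all 32851 promoters. With any base allowed also at the first of the 3 pyrimidines, it was present in the same 5 and in 7.25% of all promoters. The loosest pattern, GGGNNNNNCC, which every consensus match also fulfils, was present in these 5 and in Tnf, and in 45.8% of all promoters. The pattern GAAANNGAAA, a form of the interferon-response element, was present in Cxcl10, and in 2.98% of all promoters. Il1a, Il1b and Ccl3 held none of these patterns in this window. The following 4 sequences run 5′ to 3′ on the strand of the gene and end on the base before its start, and capitals mark the kappaB consensus in its stricter form and, in Cxcl10, also GAAANNGAAA. Cxcl10, at chr5:92348890-92349139 on the minus strand, is shown because it holds both patterns, and Ccl3, at chr11:83649379-83649498 on the minus strand, because it had the largest difference of the 10 genes and holds neither. Nfkbia, at chr12:55492648-55492767 on the minus strand, is the feedback gene of the pathway, and Il6, at chr5:30012994-30013113 on the plus strand, has the classical site but a dim probe set.
Cxcl10: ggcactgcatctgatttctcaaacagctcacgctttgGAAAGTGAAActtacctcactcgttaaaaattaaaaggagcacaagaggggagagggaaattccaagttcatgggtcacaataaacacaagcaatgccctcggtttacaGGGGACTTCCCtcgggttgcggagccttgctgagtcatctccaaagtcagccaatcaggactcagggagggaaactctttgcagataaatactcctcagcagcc
Ccl3: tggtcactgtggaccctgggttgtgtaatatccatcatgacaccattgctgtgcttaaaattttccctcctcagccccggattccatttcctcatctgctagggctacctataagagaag
Nfkbia: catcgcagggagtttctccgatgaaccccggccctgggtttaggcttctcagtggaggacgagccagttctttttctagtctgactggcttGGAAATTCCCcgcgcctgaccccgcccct
Il6: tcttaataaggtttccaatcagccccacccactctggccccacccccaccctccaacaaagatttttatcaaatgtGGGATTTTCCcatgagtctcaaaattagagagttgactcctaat
In Cxcl10 the stricter kappaB consensus matched at overlapping positions, from -104 to -95 and from -103 to -94, the form with the free base matched also from -159 to -150, and GAAANNGAAA lay at -213 to -204. In Nfkbia it lay at -29 to -20 on the opposite strand, in Il6 at -44 to -35, in Cxcl2 at -97 to -88, and in Tnfaip3 at -12 to -3 on the opposite strand of the upstream one of its 2 starts. A match is a description of letters and no evidence that a factor binds there.

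**Figure D1:**
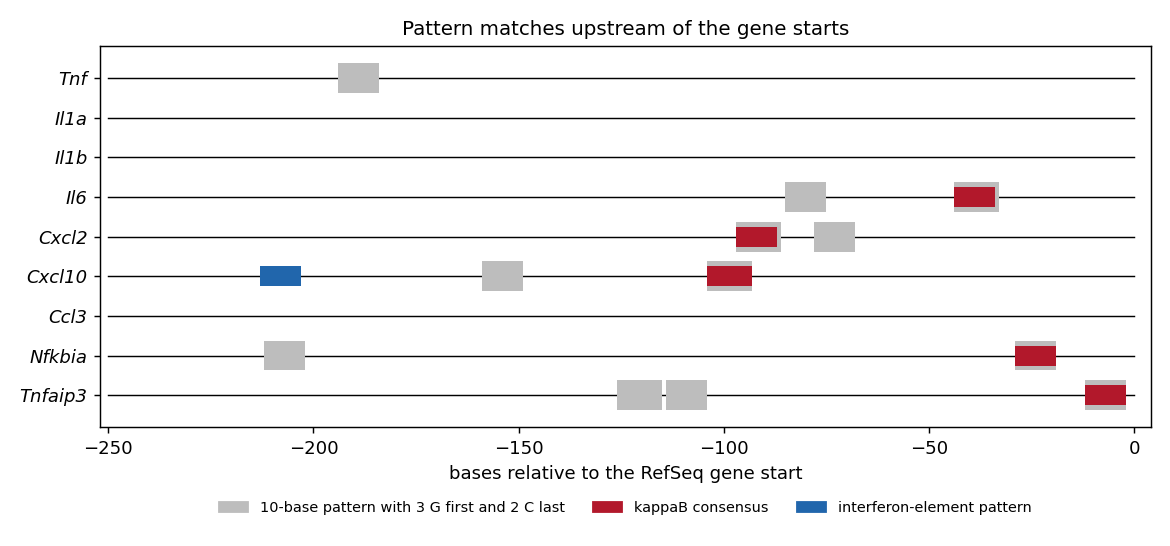
Matches to the stricter kappaB consensus, GGGNNNNNCC and GAAANNGAAA in the 250 bases before the start of the 9 genes in the promoter table, on either strand. The horizontal axis gives bases relative to the RefSeq gene start, and Il1a, Il1b and Ccl3 have an empty line.

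Loss of Ezh2 on the mutant Jak2 background was addressed by Jak2VF_Ezh2KO against Jak2VF, and 0 of the 10 genes passed the test (limma over all genes, adjusted p under 0.05), where 0.0451% of all genes, or 10 genes, passed. The chemokine genes Cxcl10, Ccl3 and Ccl4 had the largest positive differences, at 0.66, 0.64 and 0.73, while Il1a and Il1b had the largest negative ones, at -0.56 and -0.39. In all, 6 differences were positive and 4 negative, with a median of 0.16, against -0.04 over all genes. At an unadjusted p under 0.05, Cxcl10 and Ccl4 were higher, and 6.89% of all genes passed that limit in either direction. The arrays of the groups did not overlap for Cxcl10, which was higher, where 4.18% of all genes behaved so, and for Il1a, which was lower, where 6.94% did. The smallest adjusted p among the 10 genes was 0.512, for Cxcl10.

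The effect of the mutant Jak2 allele was addressed by Jak2VF against WT, and again 0 of the 10 genes passed (limma), as did 0% of all genes. The differences ran from -0.30 for Cxcl2 and Cxcl10 to 0.57 for Ccl3, with 7 positive and 3 negative and a median of 0.05, against 0.03 over all genes. None of the 10 reached an unadjusted p under 0.05, which 4.66% of all genes did. Tnf was the 1 gene whose Jak2VF arrays all lay above the WT arrays, where 3.54% of all genes were higher without overlap, and 0 of the 10 were lower without overlap, where 2.57% of all genes were. The smallest adjusted p was 0.924. This comparison shares the Jak2VF arrays with the one before it, so opposite signs in the 2 comparisons are no independent observation.

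Both changes together were addressed by Jak2VF_Ezh2KO against WT, and 0 of the 10 genes passed (limma), where 0.0225% of all genes, or 5 genes, did. The macrophage inflammatory protein genes Ccl3 and Ccl4 had the largest positive differences, at 1.21 and 0.79, followed by Nfkbia at 0.47. These 3 were higher at an unadjusted p under 0.05, which 8.6% of all genes reached in either direction. For Cxcl10, Ccl3, Ccl4 and Nfkbia all 3 Jak2VF_Ezh2KO arrays lay above all 3 WT arrays, so that 4 of the 10 genes were higher without overlap, where 6.28% of all genes were. The lowest Jak2VF_Ezh2KO array cleared the highest WT array narrowly for Cxcl10 (5.51 against 5.50), Ccl4 (7.73 against 7.65) and Nfkbia (8.04 against 7.96). None of the 10 was lower without overlap, where 6.62% of all genes were. The median of the 10 differences was 0.13, with 7 positive and 3 negative, against -0.02 over all genes, and the smallest adjusted p was 0.466, for Ccl3. In bulk RNA of sorted cells, fewer cells of a type and less RNA per cell cannot be told apart.

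**Figure D2:**
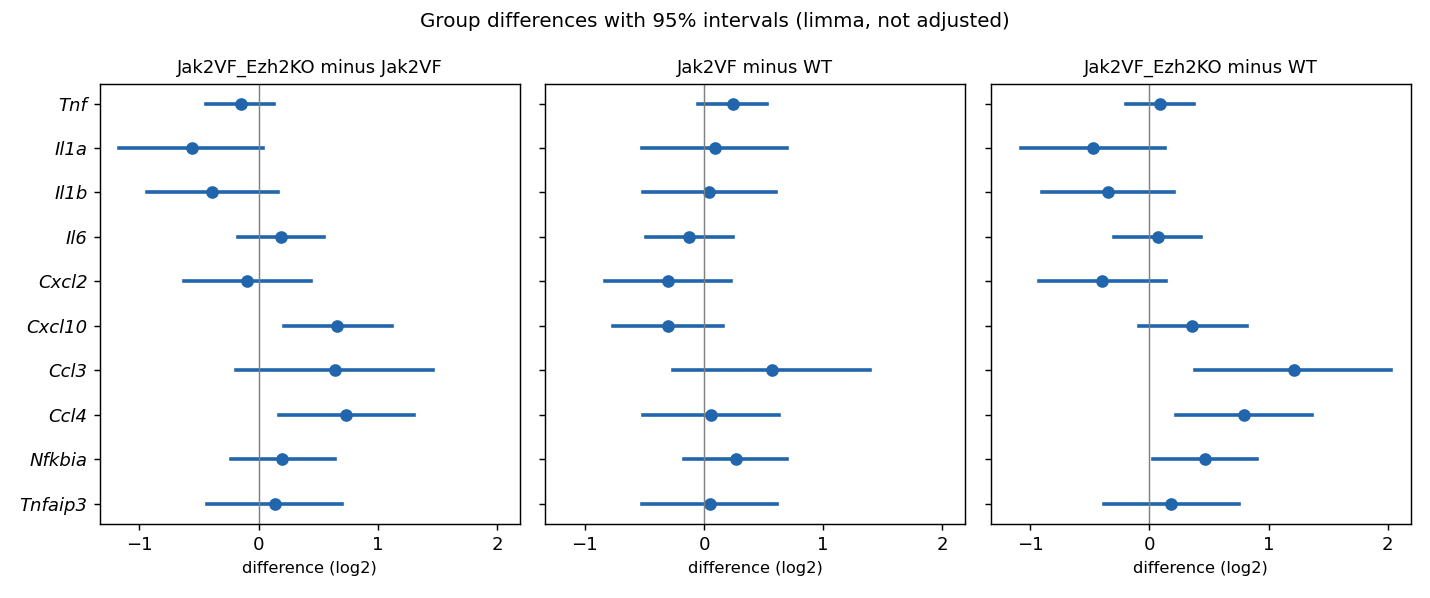
Log2 differences of the 10 genes (points) with 95% intervals from the limma fit, not adjusted for the number of genes, in 3 panels for Jak2VF_Ezh2KO minus Jak2VF, Jak2VF minus WT and Jak2VF_Ezh2KO minus WT. The intervals exclude 0 for Cxcl10 and Ccl4 in the left panel, for no gene in the middle panel, and for Ccl3, Ccl4 and Nfkbia in the right panel.

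Among the cytokines that start inflammatory cascades, Tnf, the gene of tumour necrosis factor, had small differences throughout. It read 6.00, 5.92 and 6.00 in Jak2VF_Ezh2KO, 6.06, 6.31 and 6.00 in Jak2VF, and 5.98, 5.90 and 5.78 in WT. Jak2VF lay highest and WT lowest, and the gap between the lowest Jak2VF array and the highest WT array was smaller than the spread within Jak2VF (SD 0.17, n = 3). The difference was -0.15 for Jak2VF_Ezh2KO against Jak2VF and 0.24 for Jak2VF against WT, with a standard error of 0.13 (limma, adjusted p = 0.856 and 0.924). Without Jak2VF replicate 2, its highest array, they were -0.06 and 0.15, and the first was -0.13 without the arrays with Y-linked signal.

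Il1a, which encodes the interleukin-1 alpha alarm cytokine, was low on all Jak2VF_Ezh2KO arrays. Its signal was 4.08, 3.83 and 4.13 in Jak2VF_Ezh2KO and 4.58, 4.66 and 4.49 in Jak2VF, while WT spanned 4.70, 3.75 and 5.0. The 3 Jak2VF_Ezh2KO arrays lay below all Jak2VF arrays, but WT replicate 2 lay below them all. The difference from Jak2VF was -0.56 with an interval of -1.17 to 0.04 (limma, adjusted p = 0.738), and -0.45 without the arrays with Y-linked signal. Against WT it was -0.47 (limma, adjusted p = 0.662), and leaving out WT replicate 2 moved this to -0.84, with the lowest adjusted p of any alternative for the 10 genes, 0.107. It was -0.21 without WT replicate 3 and -0.35 without the arrays with Y-linked signal. For Jak2VF against WT the same omission turned the sign, with -0.28 in place of 0.09.

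Il1b, the neighbouring gene of interleukin-1 beta, the secreted form that caspase-1 matures, read 4.95, 5.08 and 4.83 in Jak2VF_Ezh2KO, 5.82, 5.18 and 5.04 in Jak2VF, and 5.68, 4.84 and 5.38 in WT. Jak2VF replicate 1 and WT replicate 1 were the high arrays, and all 3 groups overlapped. The difference was -0.39 for Jak2VF_Ezh2KO against Jak2VF (limma, adjusted p = 0.789), with -0.15 when Jak2VF replicate 1 was left out and -0.52 without the arrays with Y-linked signal, and -0.35 for Jak2VF_Ezh2KO against WT (limma, adjusted p = 0.715). The difference from WT was -0.16 without WT replicate 1, -0.58 without WT replicate 2 and -0.47 without the arrays with Y-linked signal.

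Il6, the gene of the interleukin-6 that signals through gp130 and the JAK kinases, had signals of 3.47, 3.35 and 3.88 in Jak2VF_Ezh2KO, 3.45, 3.45 and 3.21 in Jak2VF, and 3.64, 3.45 and 3.40 in WT. All lay below every array's median, and the groups overlapped, with Jak2VF_Ezh2KO replicate 3 the highest. Jak2VF_Ezh2KO differed from Jak2VF by 0.19 (limma, adjusted p = 0.856), by 0.51 without the arrays with Y-linked signal and by 0.03 without its replicate 3. Il6, Il1a, Il1b, Cxcl2 and Cxcl10 are the 5 of the 10 genes whose mean over the arrays lay below that of the median gene. They were not equally dim. Of 1394 olfactory and vomeronasal receptor genes, a dim set, 35.5% had a lower mean than Il6 and 61% a lower mean than Il1a. For Il1b, Cxcl10 and Cxcl2 it was 83.6%, 88.5% and 90.6%. Array signals near the background are known to understate differences, and whether this holds for these 5 genes was not tested.

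**Figure D3:**
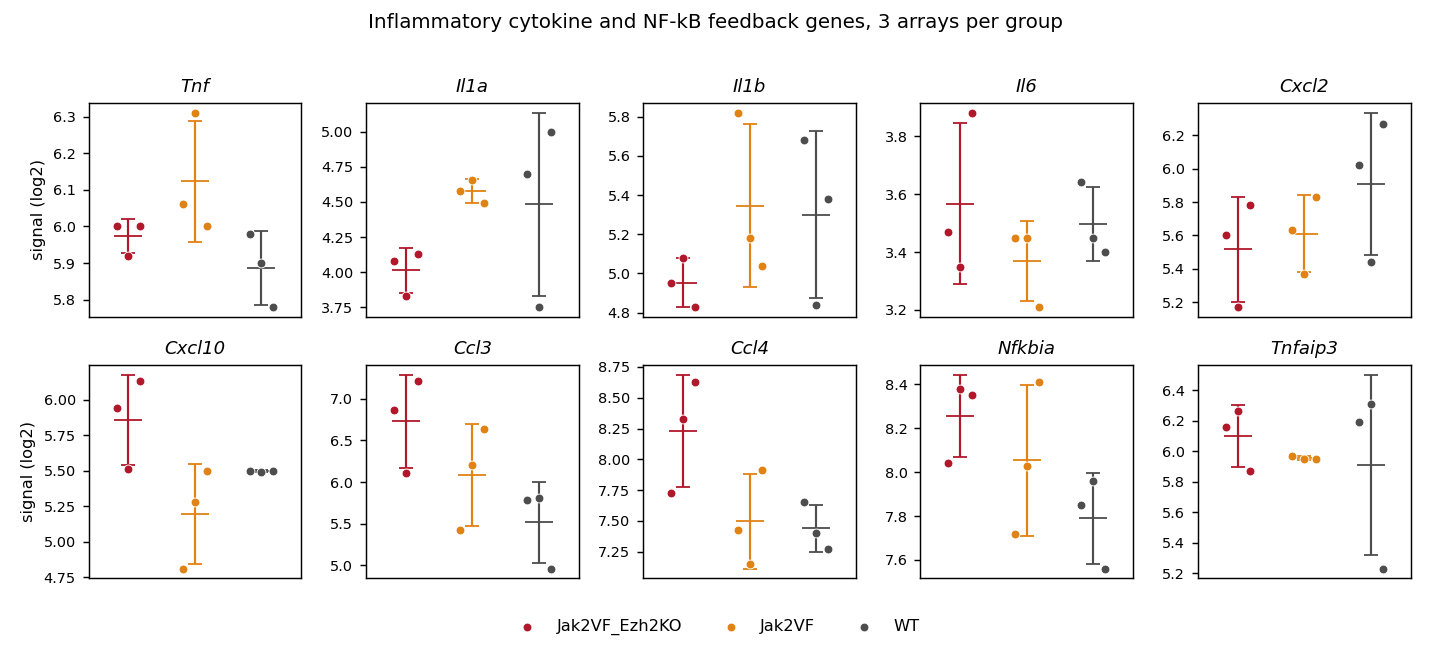
Log2 signal of each of the 10 genes on the 9 arrays (points), with group means (horizontal lines) and SD (bars, n = 3), for Jak2VF_Ezh2KO, Jak2VF and WT in that order and with a separate vertical scale for each gene. Cxcl10, Ccl3, Ccl4 and Nfkbia lie higher on every Jak2VF_Ezh2KO array than on any WT array, Cxcl10 barely so. Il1a lies lower on every Jak2VF_Ezh2KO array than on any Jak2VF array.

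The chemokine genes carried the largest differences. Ccl3 and Ccl4 encode MIP-1 alpha and MIP-1 beta, which attract monocytes and lymphocytes, and MIP-1 alpha is also known as an inhibitor of stem cell proliferation. Ccl3 read 6.86, 6.11 and 7.21 in Jak2VF_Ezh2KO, 5.42, 6.20 and 6.63 in Jak2VF, and 5.79, 5.81 and 4.96 in WT. Its means were ordered Jak2VF_Ezh2KO, Jak2VF and WT from high to low, at 6.73 ± 0.56, 6.09 ± 0.61 and 5.52 ± 0.48 (SD, n = 3), and each neighbouring pair in this order overlapped. Jak2VF_Ezh2KO was 1.21 above WT, a fold of 2.31, with a standard error of 0.37 and an interval of 0.38 to 2.03, and it missed the threshold (limma, adjusted p = 0.466). It was 1.69 without the arrays with Y-linked signal, 0.97 without Jak2VF_Ezh2KO replicate 3, and between 0.93 and 1.69 over all alternatives. Against Jak2VF it was 0.64 (limma, adjusted p = 0.770), with 0.31 without Jak2VF replicate 1, 0.40 without Jak2VF_Ezh2KO replicate 3 and 1.12 without the arrays with Y-linked signal. Jak2VF was 0.57 above WT (limma, adjusted p = 0.924), with 0.29 without WT replicate 3 or Jak2VF replicate 3 and 0.90 without Jak2VF replicate 1.

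Ccl4, which lies next to Ccl3 on chromosome 11, read 7.73, 8.33 and 8.63 in Jak2VF_Ezh2KO, 7.43, 7.15 and 7.91 in Jak2VF, and 7.65, 7.40 and 7.27 in WT. The means were 8.23 ± 0.46 in Jak2VF_Ezh2KO, 7.50 ± 0.39 in Jak2VF and 7.44 ± 0.19 in WT (SD, n = 3), and the last 2 differed by less than either spread. Jak2VF_Ezh2KO was 0.73 above Jak2VF, with an interval of 0.17 to 1.30 (limma, adjusted p = 0.585), although its replicate 1 lay below Jak2VF replicate 3. It was 0.79 above WT, a fold of 1.73, with a standard error of 0.25 (limma, adjusted p = 0.467). Without the arrays with Y-linked signal these differences were 1.14 and 1.19, and without Jak2VF_Ezh2KO replicate 3 they were 0.53 and 0.59.

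Cxcl10, the interferon-induced chemokine that draws CXCR3-positive T cells, showed a different order of groups. Its signal was 5.94, 5.51 and 6.13 in Jak2VF_Ezh2KO, 4.81, 5.28 and 5.50 in Jak2VF, and 5.50, 5.49 and 5.50 in WT. Jak2VF lay lowest and Jak2VF_Ezh2KO highest, but the lowest Jak2VF_Ezh2KO array, at 5.51, barely cleared the highest Jak2VF array, at 5.50. The same value, 5.50, was deposited for 3 arrays, WT replicates 1 and 3 and Jak2VF replicate 3. Such repeats occurred in 46.5% of all genes and in 4 of the 10 described here, and the small spread of Cxcl10 in WT (SD 0.01, n = 3) includes such a repeat. The difference between Jak2VF_Ezh2KO and Jak2VF was 0.66, a fold of 1.59, with a standard error of 0.20 and an interval of 0.21 to 1.12 (limma, unadjusted p = 0.0088, adjusted p = 0.512). It was 0.47 without Jak2VF replicate 1, 0.53 without Jak2VF_Ezh2KO replicate 3 and 0.94 without the arrays with Y-linked signal. Against WT it was 0.36, with an interval of -0.09 to 0.82 (limma, adjusted p = 0.653), and it was 0.23 without Jak2VF_Ezh2KO replicate 3 and 0.64 without the arrays with Y-linked signal.

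Cxcl2, which attracts neutrophils, had no separation between groups, with 5.60, 5.17 and 5.78 in Jak2VF_Ezh2KO, 5.63, 5.37 and 5.83 in Jak2VF, and 6.02, 5.44 and 6.27 in WT. All 3 groups overlapped. The means were ordered Jak2VF_Ezh2KO, Jak2VF and WT from low to high, and Jak2VF_Ezh2KO was 0.40 below WT with a standard error of 0.24 (limma, adjusted p = 0.677), or -0.14 without the arrays with Y-linked signal. With each array left out, this difference lay between -0.63, without WT replicate 2, and -0.21, without WT replicate 3. Against Jak2VF it differed by -0.10, a sign that turned without those arrays (0.17).

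Of the feedback genes, Nfkbia followed the order of Ccl3. It read 8.04, 8.38 and 8.35 in Jak2VF_Ezh2KO, 7.72, 8.03 and 8.41 in Jak2VF, and 7.85, 7.96 and 7.56 in WT. Jak2VF overlapped both other groups, which were apart from each other. Jak2VF_Ezh2KO was 0.47 above WT with a standard error of 0.19 and an interval of 0.03 to 0.90 (limma, adjusted p = 0.564), with 0.35 to 0.57 over the alternatives and 0.56 without the arrays with Y-linked signal. Against Jak2VF the difference was 0.20, with 0.04 without Jak2VF replicate 1, 0.38 without Jak2VF replicate 3 and 0.29 without the arrays with Y-linked signal.

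The Tnfaip3 signal was 6.16, 6.26 and 5.87 in Jak2VF_Ezh2KO, 5.97, 5.95 and 5.95 in Jak2VF, and 6.19, 6.31 and 5.23 in WT. WT replicate 3 was far below the other arrays and the 3 group means lay close together, at 6.09, 5.96 and 5.91. Against WT the difference of Jak2VF_Ezh2KO was 0.18 (limma, adjusted p = 0.865), against -0.16 once WT replicate 3 was left out and -0.04 once the arrays with Y-linked signal were. Across the 10 genes, 25 of the 45 pairs had a positive Pearson correlation over the 9 arrays and 26 did once group means were removed, with a median of 0.08 over the arrays.

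The rest of the pathway was read from lists of its genes. Of 29 other inflammatory cytokines and chemokines, 0 passed in any comparison (limma), and the median difference was -0.07 for Jak2VF_Ezh2KO against Jak2VF, 0.05 for Jak2VF against WT and -0.02 for Jak2VF_Ezh2KO against WT. The 3 with the smallest p were Ccl5, Ltb and Ccl9. Ccl5, the T cell chemokine RANTES, read 9.38, 9.72 and 9.91 in Jak2VF_Ezh2KO, 7.51, 7.71 and 8.47 in Jak2VF, and 8.66, 7.73 and 7.32 in WT, and was 1.77 above Jak2VF and 1.76 above WT (limma, adjusted p = 0.244 and 0.216). Ltb, a TNF family gene needed for lymphoid organs, was 1.26 above Jak2VF and 1.0 above WT in Jak2VF_Ezh2KO (limma, adjusted p = 0.310 and 0.438). Ccl9, another CC chemokine, ran the other way, with 6.83, 7.31 and 7.86 in Jak2VF_Ezh2KO, 8.34, 8.82 and 9.04 in Jak2VF, and 6.94, 7.96 and 7.61 in WT, and differences of -1.40 against Jak2VF and, for Jak2VF against WT, 1.23 (limma, adjusted p = 0.317 and 0.924).

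Receptors and adaptors upstream of NF-kB showed no gene that passed. Of 30 measured of 32 listed, 22 had a negative and 8 a positive difference in Jak2VF_Ezh2KO against Jak2VF, with a median of -0.11, while 41.8% of all genes were positive. Tnfrsf1a, the main receptor for TNF, read 6.96, 6.93 and 6.97 in Jak2VF_Ezh2KO, 7.18, 7.46 and 7.37 in Jak2VF, and 7.07, 7.44 and 7.08 in WT. It was lower on every Jak2VF_Ezh2KO array than on any other array, by 0.38 against Jak2VF (limma, adjusted p = 0.616). Il1r1, the signalling receptor for interleukin-1, differed by -0.46 in Jak2VF_Ezh2KO against Jak2VF and by 0.79 in Jak2VF against WT (limma, adjusted p = 0.763 and 0.924). Cd14, a co-receptor for bacterial lipopolysaccharide, was 0.81 above WT in Jak2VF_Ezh2KO (limma, adjusted p = 0.471).

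Among 5 measured chemokine receptors for the 10 genes, Ackr2, a scavenger of CC chemokines, lay lower on every Jak2VF_Ezh2KO array than on any other, with differences of -0.33 against Jak2VF and -0.38 against WT (limma, adjusted p = 0.641 and 0.476). Cxcr2, the receptor for Cxcl2, differed by -0.57 and -0.49 (limma, adjusted p = 0.663 and 0.592), and Ccr1, a receptor for Ccl3, by 0.26 and 0.08. None passed.

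Of 7 measured NF-kB subunit and IKK genes, 0 passed, and the differences lay between -0.22 and 0.16 for Jak2VF_Ezh2KO against Jak2VF and between -0.06 and 0.37 for Jak2VF against WT. Rela, the p65 subunit, was the largest of the second comparison. In 24 other feedback genes, 12 differences were positive and 12 negative in Jak2VF_Ezh2KO against Jak2VF, and 16 and 8 in Jak2VF against WT, with medians of 0.01 and 0.08 and 0 calls. Over all genes, 41.8% and 55.8% were positive in these comparisons. Nfkbie, a second IkB inhibitor, read 6.37, 7.24 and 6.32 in Jak2VF_Ezh2KO, 6.04, 6.30 and 6.84 in Jak2VF, and 5.90, 6.01 and 5.94 in WT. Both mutant groups lay above WT on every array, by 0.70 for Jak2VF_Ezh2KO and 0.44 for Jak2VF (limma, adjusted p = 0.533 and 0.924). Socs3, which restrains JAK signalling, was likewise above WT on every mutant array, by 0.23 and 0.29 (limma, adjusted p = 0.639 and 0.924). Of 9 genes that process cytokines, 8 were positive in Jak2VF against WT, with a median of 0.28, where 55.8% of all genes were positive. In Jak2VF_Ezh2KO against Jak2VF 8 were negative, with a median of -0.14, where 41.8% of all genes were positive. The 2 comparisons share the Jak2VF arrays. Casp4, the inflammatory caspase that senses lipopolysaccharide, differed by 0.72 and -0.56 (limma, adjusted p = 0.924 and 0.687).

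Chromosomal clusters put several of the genes beside their neighbours. On chromosome 11 the order is Ccl5, Ccl9, Ccl6, Ccl3, Ccl4 and Wfdc17, and on chromosome 17 it is Lst1, Ltb, Tnf and Lta (RefSeq order, GRCm38.p6). Ccl6, Wfdc17, Wfdc18, Wfdc21, Heatr9, Lst1 and Lta were picked for naming after their values were seen. In Jak2VF_Ezh2KO against WT the chromosome 11 genes differed by 1.76 for Ccl5, -0.17 for Ccl9, 0.57 for Ccl6, 1.21 for Ccl3, 0.79 for Ccl4 and 0.85 for Wfdc17. Ccl9 had the single negative difference of these 6, but its sign was not stable. It was 0.36 without the arrays with Y-linked signal, and -0.45 to 0.09 with each array left out. Just outside these 6, Heatr9, before Ccl5, differed by -0.13, and Wfdc18 and Wfdc21, after Wfdc17, by 0.38 and -0.02. Against Jak2VF, Ccl9 differed by -1.40 and the other 5 of the 6 by 0.29 to 1.77. On chromosome 17, Lst1, a leukocyte gene of the major histocompatibility complex, read 10.41, 10.62 and 10.93 in Jak2VF_Ezh2KO, 8.87, 9.02 and 9.27 in Jak2VF, and 9.54, 10.01 and 9.34 in WT. It rose by 1.60 against Jak2VF with a standard error of 0.20 (limma, adjusted p = 0.0441) and is the 1 neighbour named here that passed. That call held in 7 of 21 alternatives, with an adjusted p of 0.0193 to 0.372 and differences of 1.46 to 1.88. It was lost without any one of the Jak2VF or Jak2VF_Ezh2KO arrays, with the replicate block (adjusted p = 0.114) and without the arrays with Y-linked signal (1.88, adjusted p = 0.303). Its neighbour Ltb differed by 1.26, while Tnf and the lymphotoxin alpha gene Lta, which follow, differed by -0.15 and 0.14.

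**Figure D4:**
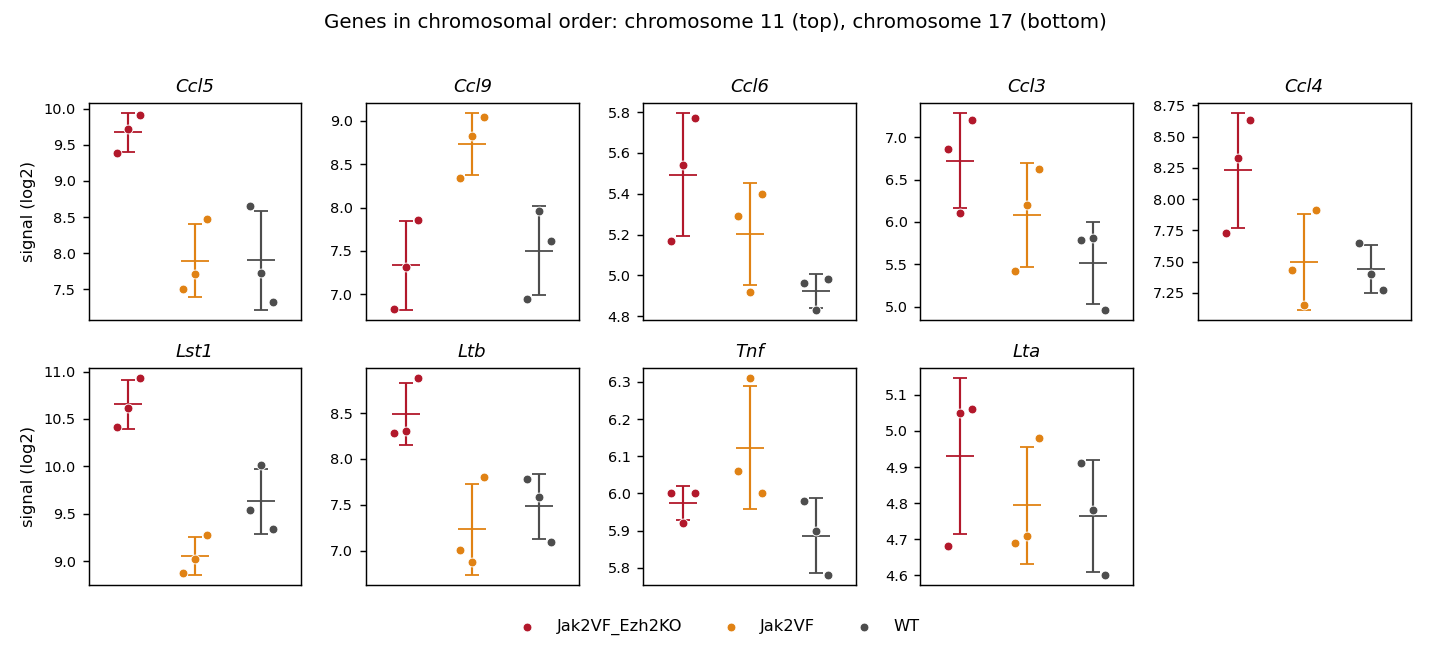
Log2 signal on the 9 arrays (points) with group means (horizontal lines) and SD (bars, n = 3) for genes in chromosomal order, on chromosome 11 above and chromosome 17 below, for Jak2VF_Ezh2KO, Jak2VF and WT. Ccl5, Lst1 and Ltb lie higher on every Jak2VF_Ezh2KO array than on any other array, Ccl9 lies highest in Jak2VF, and Tnf and Lta vary little.

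Marker lists of other cell types were read on the same arrays, and their part in the results was not tested. The mean signal of 12 mast cell and basophil markers was 5.82 to 6.23 in Jak2VF_Ezh2KO, 5.56 to 5.97 in Jak2VF and 5.12 to 5.32 in WT, so both mutant groups lay above WT, as did Ccl3 in Jak2VF_Ezh2KO. Of these markers, the mast cell protease gene Cma1 rose in Jak2VF_Ezh2KO by 1.63 against Jak2VF and by 1.67 against WT (limma, adjusted p = 0.0441 and 0.0459). Each call held in 6 of 20 alternatives and was lost with the replicate block (adjusted p = 0.121 and 0.122) and without the arrays with Y-linked signal (1.39 and 1.44, adjusted p = 0.492 and 0.538), and without most single arrays. Without Jak2VF_Ezh2KO replicate 3 it passed both (1.74 and 1.79, adjusted p = 0.0433 and 0.0427). The basophil protease gene Mcpt8 was 2.24 above WT (limma, adjusted p = 0.081). Of the 12 markers in Jak2VF_Ezh2KO, 7 were positive and 5 negative against Jak2VF, the lowest at -0.35, and 11 and 1 against WT. Over all genes, 41.8% and 46.5% were positive in these comparisons. The mean of 15 T and NK cell markers was 5.74 to 5.92 in Jak2VF_Ezh2KO, 5.53 to 5.63 in Jak2VF and 5.46 to 5.69 in WT, above both other groups as for Ccl5 and, against WT, Ccl4. Klrd1, a killer cell receptor gene, was 1.69 above Jak2VF (limma, adjusted p = 0.0934). Of the CD3 chain genes, which define T cells, Cd3e stayed between 4.72 and 5.16 on all arrays. Cd3d and Cd3g were each 0.47 above Jak2VF in Jak2VF_Ezh2KO, with overlap (limma, adjusted p = 0.776 and 0.817). Of the 15 markers, 9 were positive and 6 negative in this comparison, with 3 higher and 3 lower at an unadjusted p under 0.05. Of all genes, 41.8% were positive, and 6.89% reached that limit in either direction. The 3 higher ones were Klrd1, Il2rb at 0.88 and Gzmb at 0.84 (limma, adjusted p = 0.273 and 0.588 for the last 2). Klrd1 and Il2rb did not overlap between these groups, while Gzmb did. The 3 lower ones, chosen for naming after their values were seen, were the cytotoxic granule gene Nkg7 at -0.75, Thy1 at -0.50 and Cd4 at -0.39, all without overlap (limma, adjusted p = 0.438, 0.587 and 0.657). The mean of 12 stroma and endothelial markers overlapped between the groups, at 5.43 to 5.65 in Jak2VF_Ezh2KO, 5.39 to 5.57 in Jak2VF and 5.46 to 5.57 in WT. The mean of 14 neutrophil markers was 5.91, 5.54 and 6.48 in Jak2VF_Ezh2KO, 5.50 to 5.73 in Jak2VF and 5.47 to 5.65 in WT, and that of 10 measured B cell and plasma cell markers was 5.22, 5.40 and 6.49 in Jak2VF_Ezh2KO, 5.12 to 5.26 in Jak2VF and 5.22 to 5.32 in WT. Jak2VF_Ezh2KO replicate 3 was the high array in both lists, and the groups overlapped in these means. Single neutrophil markers did separate. S100a8 and S100a9 were 2.85 and 1.61 above Jak2VF in Jak2VF_Ezh2KO, without overlap (limma, adjusted p = 0.474 and 0.416), but overlapped with WT. Of the 14, 8 were positive and 6 negative against Jak2VF, where 41.8% of all genes were positive. The mean of 16 markers of monocytes and macrophages, the classical source of these cytokines, overlapped throughout, at 5.77 to 6.14, 6.02 to 6.33 and 5.85 to 6.13 in Jak2VF_Ezh2KO, Jak2VF and WT. Singly, 2 of the 16 were higher without overlap in Jak2VF_Ezh2KO against Jak2VF, where 4.18% of all genes were. Against WT, 1 was lower without overlap, where 6.62% of all genes were. Ly6c2 varied most, and read 3.53 on Jak2VF_Ezh2KO replicate 2, the array with the mean of 5.77. Log2 array signals have no true zero, so absence of a marker cannot be read from them.

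Genes known to respond to cell handling and to interferon were read in the same way, and 0 of either list passed (limma). The mean of 23 immediate early genes was 6.13 to 6.77 in Jak2VF_Ezh2KO, 6.00 to 6.35 in Jak2VF and 5.77 to 6.18 in WT, and the 6.77 belonged to Jak2VF_Ezh2KO replicate 3, the array with the highest Ccl3, Ccl4 and Cxcl10. Of the 23 in Jak2VF_Ezh2KO against WT, 17 were positive and 6 negative, where 46.5% of all genes were positive. At an unadjusted p under 0.05 (limma) 5 were higher, where 4.54% of all genes were. Without overlap 3 were higher, where 6.28% of all genes were. The mean of 16 interferon-induced genes, the class to which Cxcl10 also belongs, was 6.54 to 6.78 in Jak2VF_Ezh2KO, 6.37 to 6.67 in Jak2VF and 6.07 to 6.30 in WT. Of the 16, 9 were higher in Jak2VF_Ezh2KO than in WT at an unadjusted p under 0.05, where 4.54% of all genes were, and 8 were higher without overlap, where 6.28% of all genes were. Ifit1, an antiviral RNA-binding protein gene, had the same order of groups as Cxcl10, with 7.11, 7.18 and 7.32 in Jak2VF_Ezh2KO, 6.37, 6.28 and 6.52 in Jak2VF, and 6.86, 6.33 and 6.82 in WT, and was 0.82 above Jak2VF (limma, adjusted p = 0.253). Igtp, an interferon-induced GTPase gene, instead separated both mutant groups from WT, by 1.08 in Jak2VF_Ezh2KO and 1.14 in Jak2VF (limma, adjusted p = 0.159 and 0.308). Of the 16 in Jak2VF_Ezh2KO against Jak2VF, 11 were positive and 5 negative, where 41.8% of all genes were positive. Cxcl9 and Cxcl11 of this list overlapped between the groups. In Jak2VF_Ezh2KO they differed by 0.08 and -0.07 against Jak2VF and by -0.08 and -0.23 against WT.

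**Figure D5:**
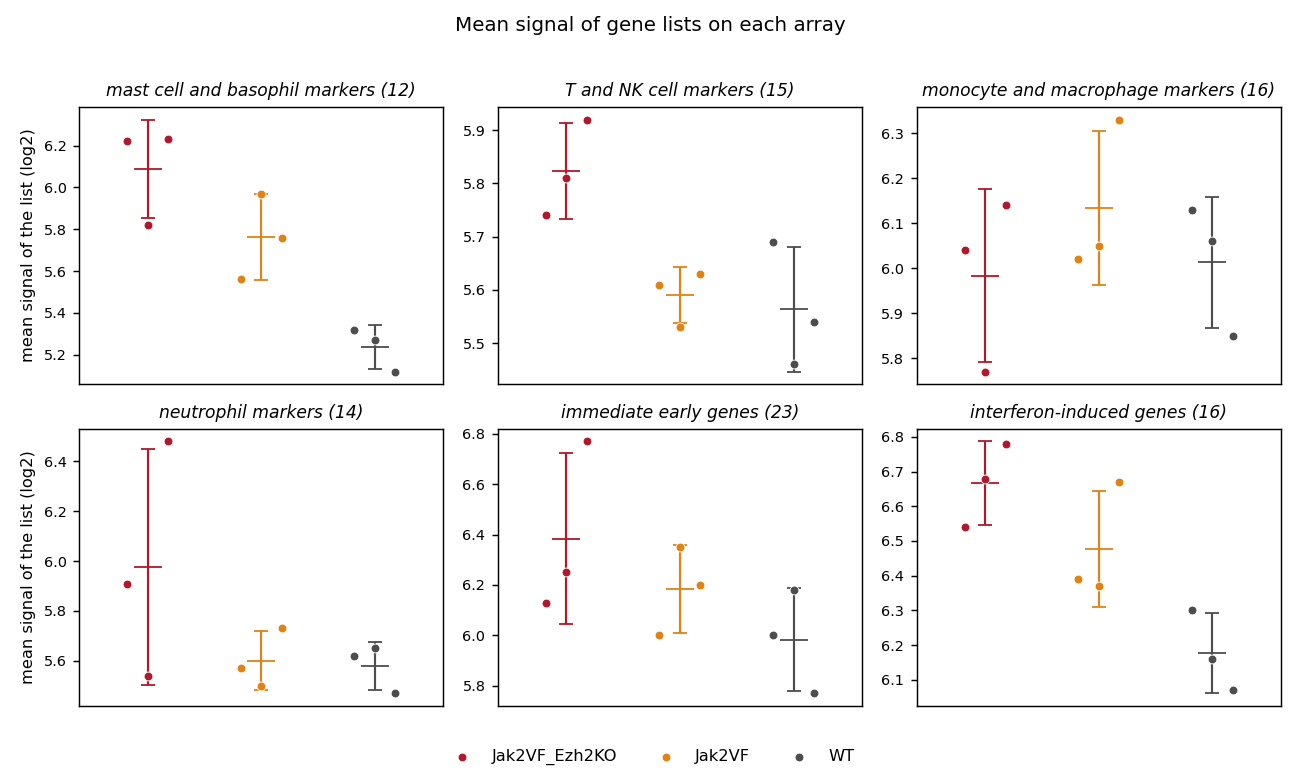
Mean log2 signal of 6 gene lists on each array (points), with group means (horizontal lines) and SD (bars, n = 3), for Jak2VF_Ezh2KO, Jak2VF and WT, and with the number of measured genes in each title. The mast cell and basophil list and the interferon-induced list lie lowest on the 3 WT arrays, and the monocyte and macrophage list overlaps between all groups.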

How the data were processed

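Expression was measured in 3 arrays per group, and the labels give the groups and name biological replicates. The deposited table holds log2 values that the authors had already processed, and the submitters' processing notes name Partek 6.6. How background was corrected and values normalized and summarised: not given in the sources used here. Of 41345 probe sets, 23521 had 1 gene symbol, 1814 had several and 16010 stayed unnamed, per the platform annotation. The probe set with the highest mean over the 9 arrays stood for each gene (22180 genes, 1082 of them with more than 1).

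All 9 arrays entered 1 fit in limma 3.58.1 (R 4.3.3; lmFit, eBayes), with 3 contrasts and Benjamini-Hochberg adjustment over all genes. It had 6 residual and 3.83 prior degrees of freedom, and standard errors and intervals are its own. The fit was checked on simulated data. The precision is limited by the 3 arrays per group. Promoter sequences and gene order came from RefSeq tables (GRCm38.p6).

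Genes named were the 10 described, Ezh2, Jak2, up to 3 genes with the smallest p of each of 18 lists (242 of 259 genes measured) with any that passed, and the genes most alike in pattern. Not all names allowed by this rule are printed. Kit, Flt3, Cd3d, Cd3e and Cd3g are added as gate and lineage markers, of which Flt3, Cd3d and Cd3g were added after their values were seen. Cxcl9, Cxcl11 and Ly6c2 were also added after their values were seen. The 10 genes and all lists were chosen with earlier results of these data known. In all, 22 alternatives were run.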

Additional observations from a re-analysis of the deposited data

How the results depend on the processing

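Under every one of 22 alternatives, 0 of the 10 genes passed in any comparison (limma, lowest adjusted p = 0.107), and 597 of 615 single-gene values kept their direction. Many of these values could not turn. Settings that alter only the test, or leave out an array of a group not compared, keep a difference as it is. The Y-linked covariate gives the same differences as leaving out both arrays that carry the signal. The count is therefore no measure of stability. The median of the 10 differences for Jak2VF against WT, 0.05, became 0.24 with the genes below the median gene left out, and ranged from -0.06 (without WT replicate 2) to 0.19 (without WT replicate 1) with each array left out. For Jak2VF_Ezh2KO against WT, 0.13, it became 0.47 with those genes left out, where 5 of the 10 genes have no value. It was 0.02 (without WT replicate 3) to 0.23 with each array left out, and 0.09 to 0.17 for Jak2VF_Ezh2KO against Jak2VF. The sign turned for Cxcl2 in Jak2VF_Ezh2KO against Jak2VF (0.17 with Y-linked signal as a covariate and without both arrays that carry it, and -0.23 to 0.08 with each array left out, turning without Jak2VF replicate 3 or Jak2VF_Ezh2KO replicate 2). It turned for Tnfaip3 in the same comparison (-0.09 in both Y-linked settings) and against WT (-0.04 in both, and -0.16, without WT replicate 3, to 0.38 with each array left out). In Jak2VF against WT it turned for Ccl4 (-0.005 with quantile normalization, and -0.15 to 0.23 with each array left out, turning without WT or Jak2VF replicate 3) and Il1a (-0.03 with array weights, and -0.28, without WT replicate 2, to 0.35). With each array left out it also turned there for Il1b (-0.19 to 0.23, without WT replicate 2 or Jak2VF replicate 1) and Tnfaip3 (-0.29 to 0.25, without WT replicate 3), and for Il6 in Jak2VF_Ezh2KO against WT (-0.09 to 0.17, without Jak2VF_Ezh2KO replicate 3). The cause was not tested.

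Counts over all genes moved more, except that 0 genes passed for Jak2VF against WT in each of these settings (limma, and ordinary least squares). For Jak2VF_Ezh2KO against Jak2VF, 10 genes passed. The count was 0 with ordinary least squares, with only the groups compared, with every probe set tested, with the replicate block and without both arrays with Y-linked signal. It was 19 with the genes below the median gene left out and 23 at an adjusted p under 0.1, and 0 to 17 with each array left out, the 17 without Jak2VF_Ezh2KO replicate 3 and 0 to 5 otherwise. For Jak2VF_Ezh2KO against WT, 5 genes passed, and the count was 0 in those same 5 settings. It was 10 with an intensity trend, 3 with array medians centred, 14 with array weights, 13 at an adjusted p under 0.1, and 0 to 14 with each array left out, the 14 likewise without Jak2VF_Ezh2KO replicate 3. Same-numbered arrays correlated at -0.231 to 0.484 in their deviations from the group means, and 1 of 9 pairs matched best with its own number. With 3 arrays per group, this cannot decide whether same-numbered arrays were handled together. The setting without both Y-linked arrays was chosen after seeing the data.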

Other observations

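Over the 9 arrays, the genes whose pattern was most like the mean deviation of the 10 genes were Pomgnt2, Bpifb5, Bckdha, Snhg6 and Tifab, with Pearson correlations of 0.951, 0.923, 0.921, 0.914 and 0.913 among 11085 genes above the median gene. This is a description without a test, since the arrays share their groups and the highest of so many values is picked.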
